A study of Mus musculus with 3 samples.

Results

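Genes whose symbol starts with Kcn encode the potassium channel subunits of the mouse, the proteins that form potassium-selective pores in the cell membrane and the accessory subunits that attach to them. The members were taken by symbol from the deposited table of read counts, which lists 88 such genes among 18038, and were grouped into 20 families. RNA had been sequenced from 3 heart samples of WT mice on the inbred C57BL/6J background at 9 days after birth, called hearts 1, 2 and 3 by their labelled replicate numbers. The hearts form a single group with no treatment or mutant, so genes were compared with each other within hearts, and each gene was examined for how far it varied from heart to heart. The labels name heart tissue without a chamber, and do not say whether the samples came from separate animals or litters, so the spread behind every p-value is that of these samples and may be technical.

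In cardiac muscle, potassium leaving through these channels ends each action potential and holds the resting membrane near the potassium equilibrium. Voltage-gated channels (families Kcna, Kcnb, Kcnc, Kcnd, Kcnh and Kcnq) open on depolarisation and carry the transient outward and delayed rectifier currents. Inward rectifiers (Kcnj) set the resting potential and also answer to acetylcholine or to falling ATP, tandem pore domain channels (Kcnk) carry a background leak, and Kcnn and Kcnm channels open on calcium. Accessory subunits (Kcne, Kcnip, Kcnab and Kcnmb) and modifier subunits that do not form channels alone (Kcnf, Kcng, Kcns and Kcnv) change how the pore-forming subunits open and reach the membrane.

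All pore-forming subunits share a short run of codons for the selectivity filter, the ring of backbone oxygens that strips water from potassium. A run of codons for serine or threonine, any residue, glycine, tyrosine or phenylalanine, and glycine was searched in frame in the longest coding sequence of each gene in GENCODE M21 (GRCm38). It was present in 71 of 88 Kcn genes, against 2.65% of all 21584 coding genes searched. The 17 genes without it were the Kcne, Kcnip, Kcnab and Kcnmb accessory genes and Kcnrg, which encodes a regulator of channel assembly. A match is a description of these letters only. The filter and its flanks are shown for members of 4 voltage-gated families, for both filters of Kcnk3, and for Kcnj11 beside Kcnj2, to show how the same run is spelled in channels of different kinds, whatever their level. Capitals mark the filter codons, and the windows of Kcnd2 and of the first filter of Kcnk3 are joined across an intron, so their coordinates span it.

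Kcna5 (chr6:126533736-126533771, minus strand): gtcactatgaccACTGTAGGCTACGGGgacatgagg
Kcnc2 (chr10:112456217-112456252, plus strand): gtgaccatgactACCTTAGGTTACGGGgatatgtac
Kcnd2 (chr6:21217394-21714150, plus strand): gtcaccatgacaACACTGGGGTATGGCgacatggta
Kcnh2 (chr5:24325546-24325581, minus strand): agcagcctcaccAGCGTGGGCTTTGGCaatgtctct
Kcnj2 (chr11:111072195-111072230, plus strand): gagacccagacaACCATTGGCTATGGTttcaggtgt
Kcnj11 (chr7:46099487-46099522, minus strand): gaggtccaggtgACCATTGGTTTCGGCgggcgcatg
Kcnk3, the first filter (chr5:30588581-30621907, plus strand): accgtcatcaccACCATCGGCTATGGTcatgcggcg
Kcnk3, the second filter (chr5:30622190-30622225, plus strand): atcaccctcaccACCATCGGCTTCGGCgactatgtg

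The fourth filter codon encodes tyrosine in Kcna5, Kcnc2, Kcnd2, Kcnj2 and the first filter of Kcnk3. It encodes phenylalanine in Kcnh2, Kcnj11 and the second filter of Kcnk3. Genes with a filter held 71.9% ± 3.61 (SD, n = 3) of all Kcn TPM, and the 17 genes without one held 28.1% ± 3.61. TPM is abundance per gene length, scaled to a total of 1000000 in each heart.

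Total counts were 17766501, 18643408 and 18768094 in hearts 1, 2 and 3, and 3 counts, the limit that a count of 0 allows, corresponded to 0.169, 0.161 and 0.160 CPM (counts per 1000000 of the library). Such limits cover counting error only. All 7 cardiomyocyte, 7 endothelial, 6 fibroblast and 8 atrial markers on the lists used were at 1 CPM or more in every heart, as were all 8 mural markers (smooth muscle and pericytes), whose summed level was 782, 1365 and 1637 TPM. No member of a list of 9 lung markers reached 1 CPM in every heart, but their summed level was 2486 TPM in heart 1, against 1.30 in heart 2 and 8.78 in heart 3. Sftpc, the marker of alveolar cells, had 4, 0 and 0 counts, and Scgb1a1, a marker of airway club cells, had 4096, 1 and 13. Whole tissue was sequenced, so fewer cells of a type and less RNA per cell cannot be told apart.

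Of the 88 Kcn genes, 45 (51.1%) reached 1 CPM in every heart, the level called detected here. Over all 18038 genes of the table the share was 71.8%. The median level of the 88 genes was 0.638 TPM, against 9.41 TPM over all genes. Summed over all members, Kcn transcripts came to 1172, 1092 and 1073 TPM in hearts 1, 2 and 3. The 5 most abundant genes held 56.5% of this sum and the 10 most abundant 83.2%. The plot of levels by family, which holds detected genes only, shows 1 member far above the others in families such as Kcne, Kcnh and Kcnk. Kcng2 and Kcnip2 were the only detected members of their families, so the plot shows no other member beside them.

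**Figure D1:**
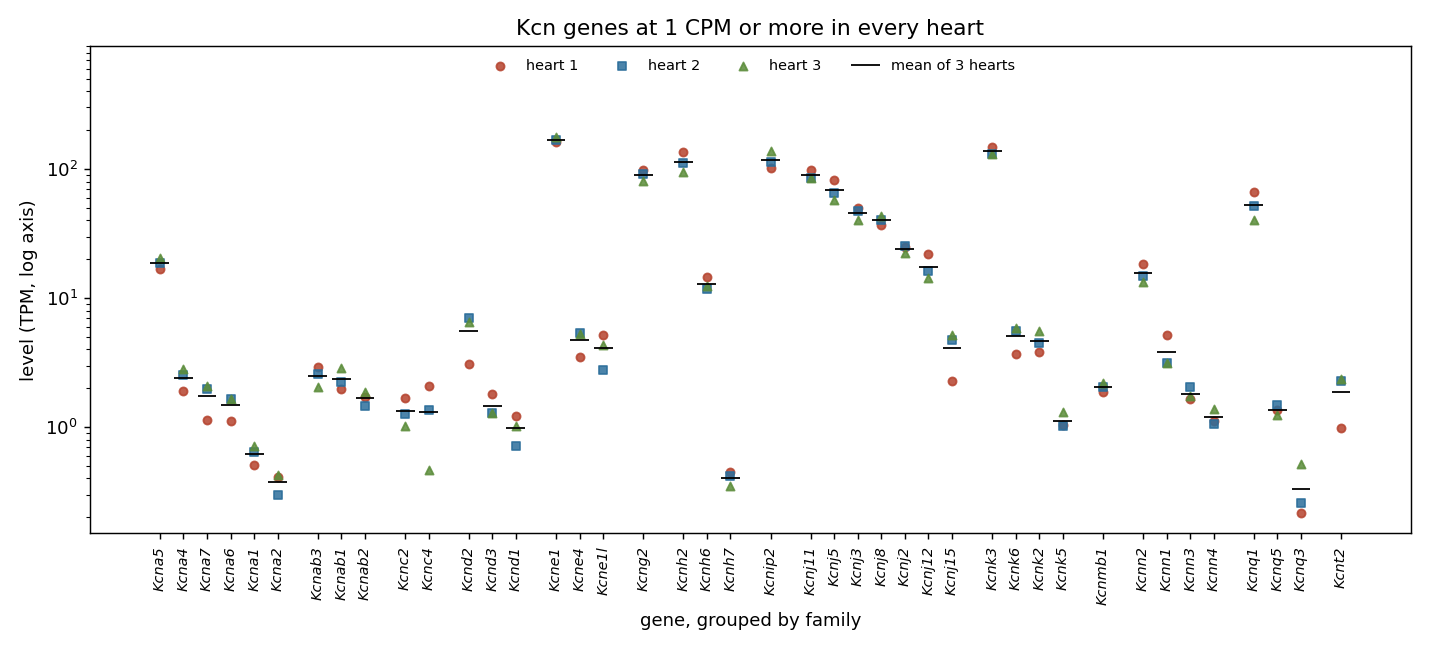
Level in TPM on a log axis (y) of 42 of the 45 Kcn genes at 1 CPM or more in every heart (x), grouped by family, with a point for each of the 3 hearts and a line at their mean. Kcne1, Kcnk3, Kcnip2 and Kcnh2 lie above 100 TPM on average, and 15 of the 42 genes lie above 10 TPM.

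Kcne1 (gene ID 16509, chr16:92345995-92359468 in GRCm38) was the most abundant Kcn gene. It encodes the small single-span subunit that joins Kcnq1 to form the slow delayed rectifier channel. Its level was 161, 169 and 176 TPM in hearts 1, 2 and 3, the lowest in heart 1, and its range did not overlap that of the next gene in the order. Kcnk3, an acid-sensitive tandem pore channel of heart and carotid body, followed at 149.6, 132 and 131 TPM, highest in heart 1. Kcnip2 (gene ID 80906, chr19:45792346-45816432), the calcium-binding accessory subunit of the Kcnd channels, was at 103, 114 and 139 TPM. Kcnh2, the pore of the rapid delayed rectifier, was at 136, 111 and 95.3 TPM. The ranges of Kcnip2 and Kcnh2 overlapped, with heart 3 highest for Kcnip2 and heart 1 highest for Kcnh2. Kcng2, a modifier subunit of Kcnb channels, and Kcnj11, the pore of the sarcolemmal ATP-sensitive channel, averaged 90.4 ± 9.37 and 90.2 ± 7.69 TPM with overlapping ranges. Along the whole order of 45 detected genes, 37 of 44 neighbouring steps had overlapping ranges, so only broad positions in it are separated from the spread between hearts.

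Inward rectifiers made the largest family, with 7 of 15 genes detected and 292 ± 24.8 TPM in sum. The family sums are plotted by heart. Of the pores of the classical inward rectifier current, Kcnj2 was at 25.1, 25.3 and 22.2 TPM and Kcnj12 at 21.9, 16.3 and 14.2 TPM. Kcnj2 was above Kcnj12 in each heart, but the ranges of both genes nearly met, and heart 1 held the highest Kcnj12. Kcnj4, a further pore of the same current, was below the minimum with 6, 5 and 13 counts. Kcnj5 and Kcnj3 form the acetylcholine-activated channel, known chiefly from atria and nodes. Kcnj5 was at 82.0, 65.7 and 57.6 TPM and Kcnj3 at 49.7, 47.2 and 40.0 TPM, both highest in heart 1 and lowest in heart 3. Of the 8 atrial markers, 6 (Myl7, Myl4, Sln, Gja5, Tbx5 and Dkk3) were likewise highest in heart 1 and lowest in heart 3, and Nppa and Bmp10 were lowest in heart 1. Over all genes tested for variation between hearts, heart 1 was highest for 38.0% and heart 3 lowest for 32.2%. These are separate shares, and the share of genes with both at once was not counted. Neither Kcnj5, Kcnj3 nor any of these 6 markers passed the test of variation. The sum of the 8 atrial markers was 9423, 9570 and 9148 TPM, with Nppa alone at 3292, 4328 and 4355 TPM. The 8 conduction markers, 7 of them detected, summed to 62.8, 54.5 and 40.0 TPM. The part of atrial or conduction tissue in the levels of Kcnj5 and Kcnj3 was not tested. The other pores of acetylcholine-type channels, Kcnj6 and Kcnj9, had 8, 5 and 2 counts and 0 counts in every heart. In Kcnj3, 31.1% of exon bases are also covered by a lincRNA on the opposite strand, and without a stated strand setting reads of the pair cannot be told apart.

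**Figure D2:**
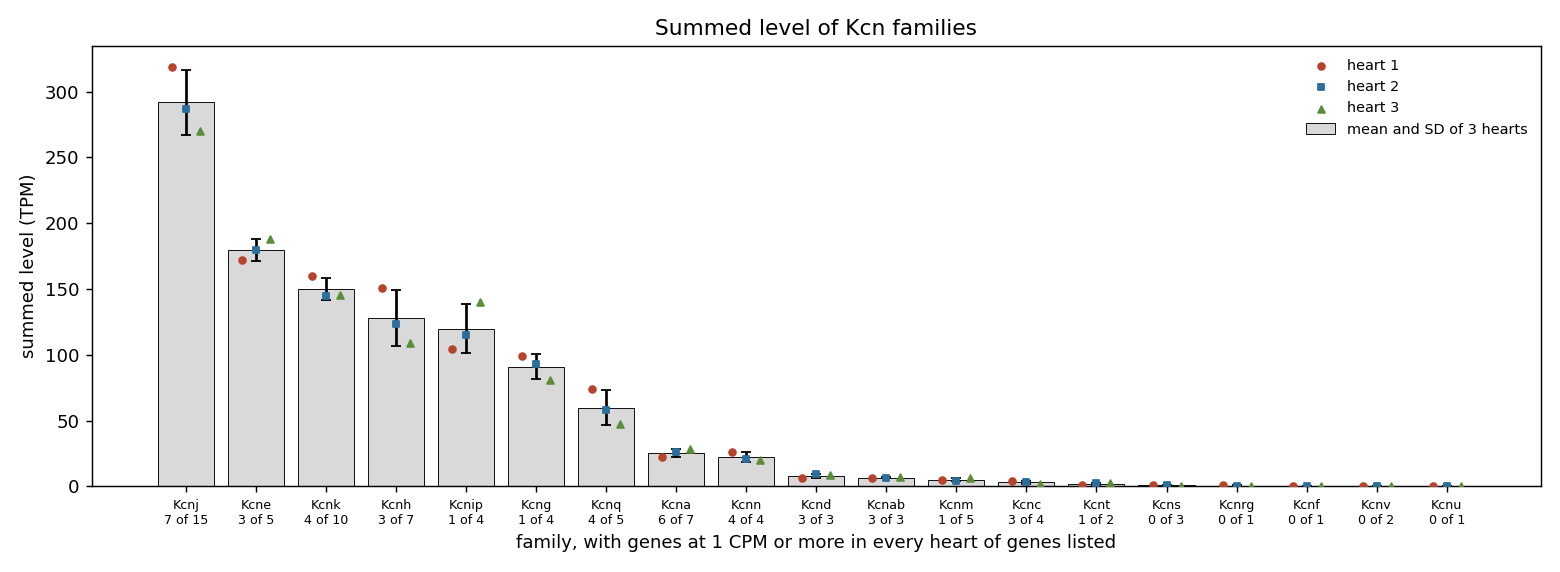
Summed level in TPM (y) of 19 Kcn families (x), as bars for the mean with SD over 3 hearts and a point for each heart. Kcnj leads at 292 TPM, and Kcns, Kcnrg, Kcnf, Kcnv and Kcnu have no detected member.

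ATP-sensitive channels pair a Kcnj pore with a sulfonylurea receptor, an ABC protein encoded by Abcc8 or Abcc9. Kcnj11 was at 99.1, 85.9 and 85.7 TPM and Kcnj8, the pore found chiefly in smooth muscle and pericytes, at 36.8, 40.3 and 43.4 TPM. The hearts did not overlap between these pores. Abcc9 was at 141, 142 and 115 TPM and Abcc8, the receptor form of pancreatic beta cells and of atria in mice, at 41.4, 38.8 and 34.4 TPM. Kcnj8 was lowest in heart 1 and highest in heart 3, as was the sum of the mural markers. Acta2 held much of that sum, at 303, 670 and 918 TPM. Each mural marker was lowest in heart 1 in TPM. Acta2, Myh11, Tagln and Vtn were highest in heart 3, but Rgs5, Pdgfrb, Notch3 and Cspg4 were highest in heart 2. The part of mural cells in the level of Kcnj8 was not tested. Of the other inward rectifiers, Kcnj15 had 104, 217 and 247 counts, the remaining detected member, with heart 1 below the others.

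Among voltage-gated pores, Kcnh2 and Kcnq1 led. Kcnq1, the pore of the slow delayed rectifier, was at 66.7, 51.8 and 40.3 TPM, highest in heart 1. Kcna5, of the ultrarapid current, was at 16.8, 18.8 and 20.4 TPM, lowest in heart 1. The modifier Kcng2 was at 98.8, 92.2 and 80.3 TPM, highest in heart 1. Of its exon bases 9.10% are covered by an unclassified transcript on the opposite strand. Kcnh6, a relative of Kcnh2, reached 12.9 ± 1.40 TPM, but its counts were not whole numbers, so its level is uncertain where reads were divided between genes.

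The pores of the transient outward current were low next to their accessory subunit. Kcnd2, of the fast component, was at 3.11, 7.02 and 6.55 TPM, Kcnd3 at 1.80, 1.28 and 1.30 TPM, and Kcna4, of the slow component, at 1.90, 2.54 and 2.80 TPM. Heart 1 had the lowest Kcnd2 and the highest Kcnd3, and Kcnd2 was above Kcnd3 in all 3 hearts. Kcnip2, at 118 ± 18.4 TPM on average, lay above all of them in each heart. Dpp6 and Dpp10, further accessory subunits of Kcnd channels, were below the minimum, with 7, 8 and 4 counts and with 2, 1 and 4 counts. The other Kcnip genes were below it too, Kcnip3 with 25, 18 and 35 counts, and Kcnip1 and Kcnip4 with at most 12.

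Of the accessory Kcne genes, Kcne4, which inhibits Kcnq1, was at 3.48, 5.36 and 5.32 TPM. Kcne1l was at 5.20, 2.76 and 4.31 TPM. Kcne2, known as a partner of Kcnh2, had 8, 6 and 3 counts, and Kcne3 13, 23 and 35. The neighbouring genes Kcne1 and Kcne2, 47.9 kb apart on chromosome 16, thus stood at 168 and 0.361 TPM. The cytoplasmic beta subunits Kcnab1, Kcnab2 and Kcnab3 were all detected, at 2.36 ± 0.455, 1.69 ± 0.210 and 2.50 ± 0.445 TPM.

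Leak channels of the Kcnk family were led by Kcnk3 (137.5 ± 10.4 TPM), which held most of the family's 149.8 ± 8.41 TPM. Kcnk6 was at 3.68, 5.60 and 5.86 TPM, and Kcnk2, a channel opened by membrane stretch, at 3.83, 4.50 and 5.61 TPM, both lowest in heart 1. Kcnk5 was at 1.12 ± 0.166 TPM, and the 6 other members were below the minimum. Kcnk1 had 5, 9 and 10 counts. Calcium-activated channels were led by Kcnn2, an SK channel known from atria, at 18.4, 14.8 and 13.4 TPM, ahead of Kcnn1 at 5.22, 3.16 and 3.15, Kcnn3 at 1.64, 2.04 and 1.74 and Kcnn4, a channel of red cells and immune cells, at 1.11, 1.06 and 1.39 TPM. The pore of the large-conductance channel, Kcnma1, was below the minimum with 18, 27 and 16 counts. Its smooth muscle beta subunit Kcnmb1 was detected at 1.88, 2.06 and 2.18 TPM, so that the accessory transcript exceeded that of its pore. Kcnmb4, a further accessory gene, averaged 2.53 ± 0.911 TPM but was below the minimum with 22, 16 and 34 counts.

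The remaining detected genes were low. Kcnt2, a sodium-activated channel, was at 1.87 ± 0.776, Kcna7 at 1.73 ± 0.522, Kcna6 at 1.47 ± 0.310, Kcnq5 at 1.36 ± 0.122, Kcnc2 at 1.32 ± 0.333 and Kcnc4 at 1.30 ± 0.806 TPM. Kcnd1, Kcna1, Kcnh7, Kcna2 and Kcnq3 were under 1 TPM, from 0.986 to 0.332. The minimum of 1 CPM carries no length correction, and the lengths implied by the authors' values ran from 3721 bases for Kcnd1 to 11636 for Kcna2. For Kcna6, 39.6% of exon bases are shared with an antisense gene. Of the 43 genes below the minimum, 3 (Kcng3, Kcnj9 and Kcns2) had no count in any heart and 12 had at most 3 counts in each heart. The 5 with the highest mean CPM were Kcnip3, Kcnmb4, Kcne3, Kcnma1 and Kcnj14, and the highest count of any of the 43 was 35.

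Several Kcn genes lie within 200 kb of a related gene, and levels within some of these clusters were far apart. On chromosome 11, Kcnj2 was at 24.2 ± 1.72 TPM and Kcnj16, 38.2 kb away, had 0, 0 and 1 counts. On chromosome 9, Kcnj5 was at 68.5 ± 12.4 TPM and Kcnj1, 28 kb away, had 2, 0 and 0 counts. In both clusters 1 gene accounted for nearly all of the signal. On chromosome 6, Kcna5 was at 18.7 ± 1.79 TPM, and Kcna1 and Kcna6 at 0.621 ± 0.105 and 1.47 ± 0.310 TPM. Pores and receptors of ATP-sensitive channels were neighbours too, and both genes were detected in each cluster. Kcnj11 and Abcc8 lie 3.7 kb apart on chromosome 7, and Kcnj8 and Abcc9 16.2 kb apart on chromosome 6. The low pairs Kcnj9 and Kcnj10, Kcna3 and Kcna2, and Kcnip1 and Kcnmb1 complete the plot of neighbouring genes.

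**Figure D3:**
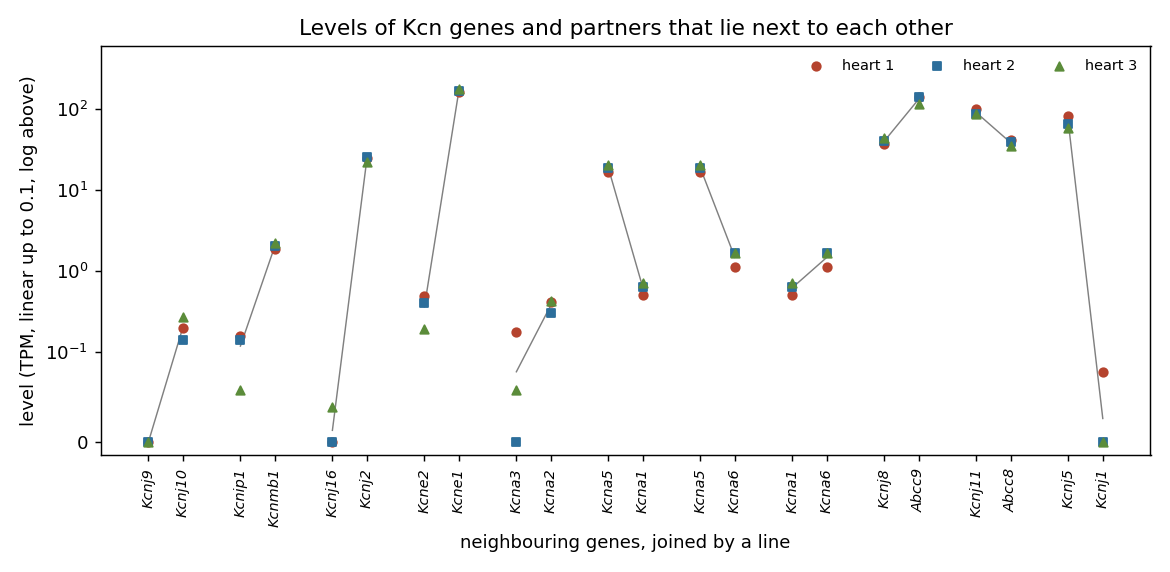
Level in TPM (y, linear up to 0.1 and log above) of Kcn genes and channel partners that lie within 200 kb of each other (x, pairs joined by a line between their means), with a point for each of the 3 hearts. The steepest steps are those from Kcnj16 to Kcnj2, from Kcne2 to Kcne1 and from Kcnj5 to Kcnj1.

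Alternative or partner subunits of the same current were compared within hearts for 28 pairs. Of these, 22 had both genes at the minimum and were tested with edgeR's quasi-likelihood test on counts per length, two-sided, with the heart as a block and adjustment over the 22 pairs. The test called 20 pairs (90.9%), 18 with the first-named gene higher and 2 with the second. Pairs outside the list were not tested for comparison, so these counts describe the listed pairs only. The test borrows its spread from all pairs (44 degrees of freedom) although pairs share genes, so its smallest p-values overstate the precision of 3 hearts. With the spread of each pair alone, an alternative chosen after seeing the data, 17 pairs passed. The pairs were chosen with earlier results of these data known.

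On the log2 scale, Kcnip2 exceeded Kcnd3 by 6.35 (SE 0.292, edgeR adjusted p = 2.71e-24, or 0.00891 with the spread of the pair alone) and Kcnd2 by 4.48 (SE 0.258, edgeR adjusted p = 1.59e-20, or 0.0116 alone). Kcne1 exceeded Kcne4 by 5.18 and its pore Kcnq1 by 1.70 (SE 0.170, edgeR adjusted p = 1.67e-12, or 0.0309 alone). Kcnk3 exceeded Kcnk2 by 4.90. Kcnh2 exceeded Kcnq1 by 1.12 (SE 0.175, edgeR adjusted p = 1.46e-07, or 0.00891 alone). Kcna5 exceeded Kcna4 by 2.96, and Kcnn2 exceeded Kcnn3 by 3.10 and Kcnn1 by 2.05. Each of these log2 ratios had the same sign in all 3 hearts, as the plot of pairs shows.

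In the ATP-sensitive channel, Kcnj11 exceeded Kcnj8 by 1.17 on the log2 scale (SE 0.202, edgeR adjusted p = 1.04e-06, or 0.0254 alone). Abcc9 exceeded Abcc8 by 1.79 (SE 0.145, edgeR adjusted p = 1.92e-15, or 0.00891 alone). Kcnj8 was below Abcc9 by -1.72 (SE 0.128, edgeR adjusted p = 1.35e-16, or 0.0169 alone). The abundant pore and the abundant receptor thus come from different gene clusters, Kcnj11 beside Abcc8 and Abcc9 beside Kcnj8. In the acetylcholine-activated channel, Kcnj5 exceeded Kcnj3 by 0.58 (SE 0.169, edgeR adjusted p = 0.00164, or 0.0309 alone), and the call was lost without heart 2 (0.63, edgeR adjusted p = 0.0642). Kcnj2 was below Kcnh2 by -2.22 (SE 0.166, edgeR adjusted p = 1.49e-16, or 0.00922 alone).

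Calls on low or variable pores were less firm. Kcnj2 exceeded Kcnj12 by 0.49 (SE 0.230, edgeR adjusted p = 0.0423), but not with the spread of the pair alone (adjusted p = 0.0859). The call was also lost when heart 2 (0.42, edgeR adjusted p = 0.419) or heart 3 (0.41, edgeR adjusted p = 0.337) was left out. With longest transcript lengths the ratio was -0.29, since the length implied for Kcnj12 by the authors' values was 4179 bases and its longest annotated transcript has 2463. Kcnd2 exceeded Kcnd3 by 1.88 (SE 0.327, edgeR adjusted p = 1.16e-06), with 0.0859 alone and 0.0598 without heart 2. Kcnd2 exceeded Kcna4 by 1.15 (edgeR adjusted p = 0.000836), with 0.205 without heart 2 and 0.0627 without heart 3. Kcnab1 against Kcnab2 (0.48, 95% interval -0.20 to 1.16, edgeR adjusted p = 0.169) did not pass. It passed without heart 1 (0.57, edgeR adjusted p = 0.00679) and with the spread of the pair alone (adjusted p = 0.0484). Its ratio shrank to 0.06 when lengths came from the longest annotated transcripts, and to 0.22 when counts were not divided by length. Neither of these ratios passed. The length implied for Kcnab1 was 2898 bases, against 4382 in its longest transcript.

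**Figure D4:**
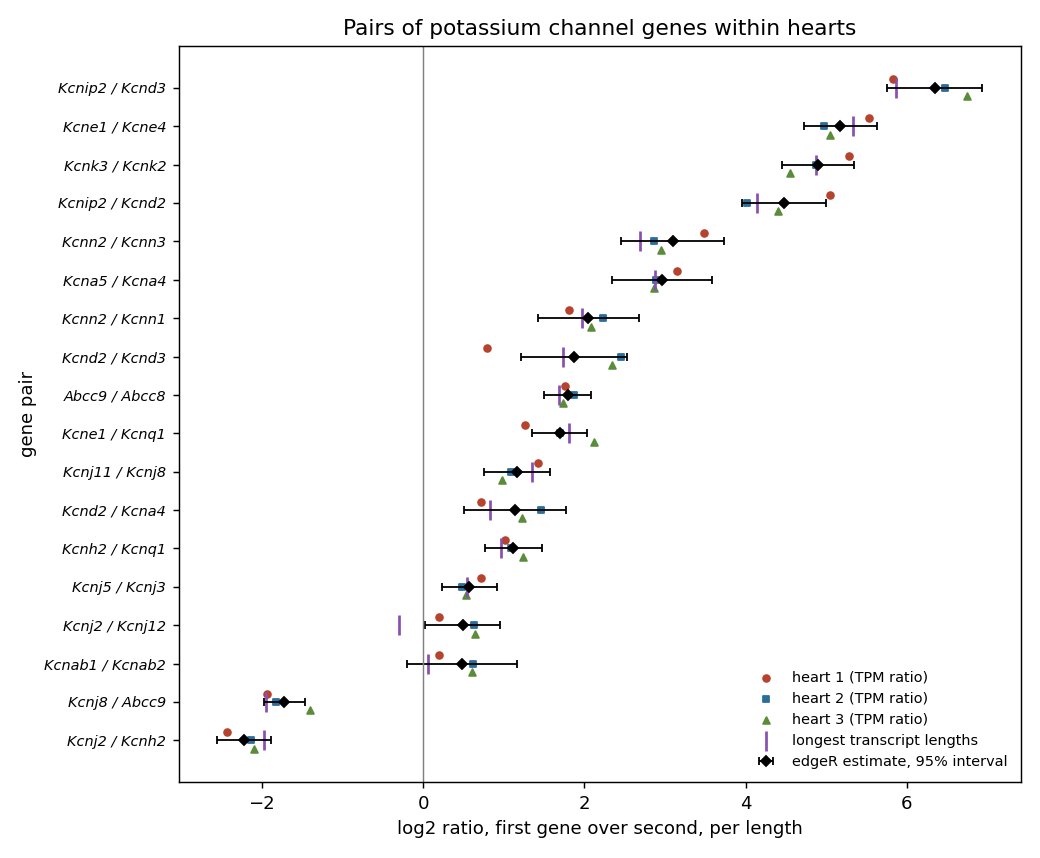
Log2 ratio of the first gene over the second, per length (x), for 18 of the 22 pairs tested (y), with the edgeR estimate and its 95% interval, the TPM ratio of each of the 3 hearts and the estimate with longest transcript lengths. Most pairs lie far from 0, the interval of Kcnab1 over Kcnab2 spans 0, and Kcnj2 over Kcnj12 changes sign with the lengths used.

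Variation between hearts was tested for all 13313 genes with a mean of at least 1 CPM, by the deviance of each gene from a common level with edgeR's trended dispersion. Of the 49 Kcn genes tested, 1 passed the threshold, Kcnd2, against 1.44% of all genes. Kcnd2 had 126, 292 and 284 counts, or 6.98, 15.7 and 15.3 CPM after TMM scaling (edgeR adjusted p = 0.0477). The gap lies between heart 1 and the other hearts, which nearly coincide. The call was lost without any 1 of the hearts (edgeR adjusted p = 0.99987 without heart 1, 0.211 without heart 2 and 0.0951 without heart 3), with library totals in place of TMM (0.0768) and with a minimum of 5 CPM (0.0637). In heart 1 the summed lung markers were highest and the summed mural markers lowest. Of the markers on all lists, 11 passed the same test, 5 of them lung markers, and most of those tested did not pass. The atrial marker Bmp10 was low in heart 1 as Kcnd2 was, at 32.1, 65.3 and 57.1 CPM (edgeR adjusted p = 0.0123). Acta2 (mural), Acta1 (skeletal muscle) and the lymphocyte markers Ms4a1 and Cd79a were also lowest in heart 1. The conduction marker Cacna2d2 was highest there, at 48.6, 34.3 and 22.9 CPM (edgeR adjusted p = 0.0144), as were 5 lung markers. Irx3, a transcription factor known to act on conduction tissue, was highest at 70.7 TPM, against 48.8 in heart 2 and 37.5 in heart 3. It did not pass the test (edgeR adjusted p = 0.101), and the part of any of these in the level of Kcnd2 was not tested.

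At an unadjusted p under 0.05, 5 of 49 Kcn genes varied. Over all genes tested the share was lower, at 5.0%. After Kcnd2 came Kcnj15 (5.76, 11.7 and 13.3 CPM, edgeR adjusted p = 0.135), Kcnt2 (3.49, 7.15 and 8.70 CPM, edgeR adjusted p = 0.377), Kcnq1 (93.5, 72.6 and 59.6 CPM, edgeR adjusted p = 0.626) and Kcnc4 (4.10, 3.01 and 1.24 CPM, edgeR adjusted p = 0.671). Heart 1 was lowest for Kcnd2, Kcnj15 and Kcnt2 and highest for Kcnq1 and Kcnc4. The median coefficient of variation of detected Kcn genes was 17.8%, against 8.83% over all detected genes, whose median level of 19.1 TPM was above the 4.07 TPM of detected Kcn genes. Counting error is larger for low genes, so these 2 values are not on an equal footing.

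**Figure D5:**
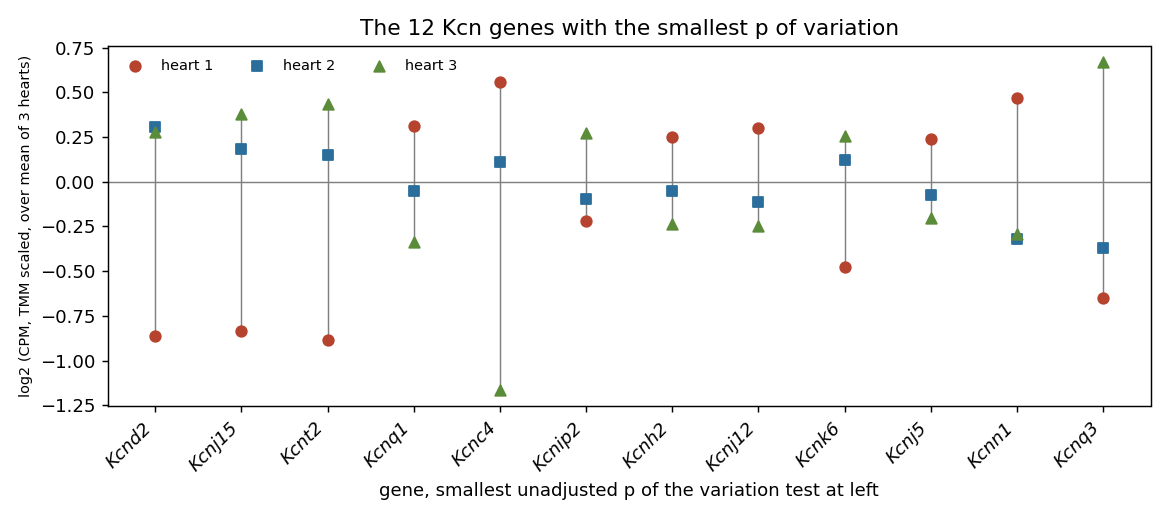
Log2 of each heart's CPM over the mean of the 3 hearts (y), for the 12 Kcn genes with the smallest unadjusted p of variation (x), with a point for each heart. In Kcnd2, Kcnj15 and Kcnt2 heart 1 lies below the other hearts, and in Kcnq1, Kcnh2, Kcnj12 and Kcnj5 it lies above them.

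Of 20 genes for partners and regulators of potassium channels outside the Kcn symbols, 15 were detected, and none passed the test of variation between hearts (15 tested, 1 with an unadjusted p under 0.05, Irx3). Among the most abundant were Cav3, the muscle caveolin, at 182 ± 9.00 TPM, Abcc9 at 133 ± 15.2, Lrrc10, a leucine-rich repeat protein of heart muscle, at 132 ± 15.8, and Irx3 at 52.4 ± 16.9 TPM. Akap9, the anchor that holds protein kinase A at the Kcnq1 channel, was at 11.3 ± 0.684 TPM. Irx5, a repressor of Kcnd2 in mouse ventricle, was at 14.4 ± 2.94 TPM and lowest in heart 3.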

How the data were processed

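The deposited table gives read counts per gene, per the file headers. In it 15.5% of genes had a count more than 0.005 from a whole number in some heart, 4 of 88 Kcn genes among them. The deposited values are therefore expected counts, rounded here for tests. It also gives FPKM computed by the authors with 2 decimals, so levels of low genes are coarse. The submitters' processing notes name HISAT and GRCm38.p6. The sources used here do not give the counter, its annotation or its strand setting. The table's strand differs from GENCODE M21 for 22 of 88 Kcn genes (25%) and for 14.96% of all 17390 genes matched to it. Strands here are therefore GENCODE's.

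TPM was FPKM rescaled to 1000000. Ratios between genes used the length that the authors' counts and FPKM imply. Tests used R 4.3.3, edgeR 4.0.16 and limma 3.58.1, with Benjamini-Hochberg adjustment and a threshold of 0.05, and were tested on simulated data. DESeq2 1.42.0 was an alternative. A chi-square comparison of counts (9.70 to 23.7 per degree of freedom) found no pair of hearts to agree within counting noise, so none was merged; this does not show that they are independent animals. Results of some members, pairs and partners are not reported here. Otherwise the text names every detected Kcn gene, members of pairs, genes past the variation test, the 5 highest below the minimum and the 5 highest partners. Kcnj1, Kcnj6, Kcnj16, Kcnip1, Kcnip4, Kcnj13, Kcnrg and Lrrc26, the genes at 0 and the lower partners described were chosen after their values were seen. Members and lists were chosen with earlier results of these data known.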

Additional observations from a re-analysis of the deposited data

How the results depend on the processing

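The number of detected Kcn genes was 45, 53 with a minimum of 0.5 CPM, 39 with 1 TPM, 52 with 1 CPM in at least 1 heart, and 46 to 47 when a heart was left out. It was 75 when any count in every heart sufficed, where 86.9% of all genes passed. The summed Kcn level was 1113 TPM, 1082.8 to 1132 TPM when a heart was left out, and 1942 CPM without a length correction. Variable Kcn genes numbered 1 in the reported test, with DESeq2 size factors, without a filter and with unrounded counts. The number was 0 with library totals only and with a minimum of 5 CPM, 4 with a common dispersion (Kcnc4, Kcnj15 and Kcnt2 besides Kcnd2), and 0 without any 1 heart, where the test held fewer samples. Pairs called numbered 20, and 15 to 21 over 9 alternatives on the same pairs or 26 of all pairs with a count in every heart. Of the 9 alternatives, edgeR with DESeq2 size factors could not change the ratios, because the block for the heart absorbs any scaling of that heart. With no replicate block 19 pairs were called. The sign of Kcnj2 over Kcnj12 turned with longest transcript lengths (-0.29). Genes under the minimum rest on few counts, and at 3 counts a gene cannot be told from one at 0.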

Other observations

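A few genes below the minimum had most of their counts in heart 1, the heart with the lung marker counts. Kcnj13, an inward rectifier of epithelia, had 8, 0 and 0 counts in hearts 1, 2 and 3, and 49.1% of its exon bases are covered by Gigyf2 on the opposite strand. Kcnrg had 19, 5 and 5 counts. Lrrc26, an accessory subunit of the large-conductance channel in secretory epithelia, had 15, 0 and 0 counts. Scgb1a1, a secreted protein of airway club cells, was at 1202 TPM in heart 1, against 0.280 in heart 2 and 3.48 in heart 3. These genes were noticed after their values were seen, and the part of lung tissue in their counts was not tested.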
